A study of Mus musculus with 6 samples.

Results

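A set of 42 genes was examined in mouse pancreas after cerulein: 24 genes of the ATF4 response and 18 genes for tRNA synthetases of the cytosol. The set comprises every row of the deposited count table whose symbol is on a list of ATF4 targets and synthetases, the synthetases under their older symbols, so that 42 of 36333 rows were taken. All 42 passed the filter on low counts, as did 12441 rows in all. Pancreas came from WT mice given cerulein by intraperitoneal injection (3 libraries) and from WT mice given saline by the same route (3 libraries). Cerulein, a peptide that acts like cholecystokinin and overstimulates the enzyme-secreting acinar cells, was injected 10 times (200 µl, 200 µg/kg/h), with tissue collected once the injections were complete. The sources used here give neither strain, sex nor age, nor whether each library comes from a separate animal, so the p-values below measure the spread between these samples.

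ATF4 is a transcription factor whose protein is made more efficiently when the translation initiation factor eIF2 is phosphorylated, a state called the integrated stress response. Its kinases sense unfolded protein in the endoplasmic reticulum (PERK), lack of amino acids (GCN2), double-stranded RNA (PKR) and lack of haem (HRI). ATF4 pairs with C/EBP proteins on a composite element and raises genes that import and make amino acids, charge tRNAs and restore translation. Acinar cells make more protein per cell than almost any other cell type, and PERK is needed for their survival in mice.

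Levels are given as CPM, the read count of a gene scaled to the TMM-adjusted total of its library, in the order of replicates 1, 2 and 3. A gene is called higher or lower at an adjusted p under 0.05 in edgeR's quasi-likelihood test, with Benjamini-Hochberg adjustment across the 12441 genes. Total counts per library lay between 5335117 and 7610775. Acinar marker genes summed to 186814, 231713 and 185505 CPM in the cerulein libraries, against 327946, 608450.0 and 613437 CPM in the saline ones. Of these 10 genes, 9 were called lower after cerulein, where 27.1% of all genes tested were. Saline replicate 1 stood apart from the other saline libraries in the acinar sum and in 9 neutrophil markers. The latter summed to 50.8, 87.9 and 118 CPM in the cerulein libraries, against 219, 18 and 41.9 CPM in the saline ones. Among saline libraries it also had the highest sum of monocyte and macrophage markers and the lowest sum of islet markers. The ratio of cerulein to saline means of the acinar sum was 0.39. It was 0.33 without saline replicate 1, an alternative added after the data were seen. Only some of the other values that rest on this library are also given without it. In bulk tissue, fewer cells of a type and less RNA per cell cannot be told apart.

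The composite element to which ATF4 and C/EBP proteins bind was looked for first, as the letters TGATGNAA on either strand, in RefSeq promoter windows of GRCm38.p6 that run from 250 bases before to 50 bases after the start of a gene. Windows were given for 32 of the 42 genes. The element's letters were in 8 of these 32, against 270 of 9838 tested genes with a window (2.74%). The list was made of ATF4 targets and synthetases, so this comparison is not independent of how the genes were chosen. Among synthetases, 5 of the 6 genes with a window that were called higher after cerulein held the letters, against none of the 4 that were not called and not in the 1 that was called lower. Among the 24 response genes, 3 of 16 called higher held them. The 30 bases around 8 matches follow, in the direction of the gene, with the matched letters in capitals. For each gene 1 match is printed, also where a window held more. All were picked for these letters, so the capitals agree through the search itself, save at the base N.
Chac1, chr2:119351038-119351067, plus strand: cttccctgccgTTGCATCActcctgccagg
Asns, chr6:7693214-7693243, minus strand: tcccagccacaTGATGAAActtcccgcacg
Trib3, chr2:152344028-152344057, minus strand: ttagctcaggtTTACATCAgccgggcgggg
Aars, chr8:111033840-111033869, plus strand: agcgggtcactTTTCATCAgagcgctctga
Gars, chr6:55037960-55037989, plus strand: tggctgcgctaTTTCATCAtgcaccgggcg
Iars, chr13:49682126-49682155, plus strand: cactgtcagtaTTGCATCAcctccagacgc
Tars, chr15:11399655-11399684, minus strand: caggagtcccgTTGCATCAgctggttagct
Yars, chr4:129189895-129189924, plus strand: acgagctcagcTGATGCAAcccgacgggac
Among these stretches, TTGCATCA, the element read on the other strand, stands in those of Chac1, Iars and Tars, and that of Yars has the same element on the strand of the gene. Counted from +1 at the start, the match printed begins at -193 in Chac1, -30 in Gars, -23 in Asns, -15 in Tars, +4 in Yars, +8 in Iars, +10 in Aars and +15 in Trib3. The 250 bases before the start are shown for Chac1, the response gene with the farthest upstream match, with the match in capitals.
Chac1, chr2:119350992-119351241, plus strand: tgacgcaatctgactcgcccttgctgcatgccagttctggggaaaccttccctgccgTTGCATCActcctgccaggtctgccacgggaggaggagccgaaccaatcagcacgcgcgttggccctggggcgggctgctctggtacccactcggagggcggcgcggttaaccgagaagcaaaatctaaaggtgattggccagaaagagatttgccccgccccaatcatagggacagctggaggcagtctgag
None of the 14 mitochondrial synthetase genes with a window held a match, and 9 of the 17 other ATF4 target genes with a window held it in at least 1 window. Those 9 include genes called higher, such as Atf3, genes not called, and Nupr1 and Vldlr, which were not measured. Sqstm1 is among the target genes that were called higher without a match. A match describes the letters of a window and is not evidence of binding, and no match says only that these letters are not in that window. Windows were not used here for Ppp1r15b, Eif4ebp1, Slc7a5, Cars, Lars, Nars, Wars, Rars, Vars and Hars.

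Across the 42 genes, 28 were called higher after cerulein, 3 lower and 11 not called. Over all 12441 genes tested, 28.7% were called higher and 27.1% lower. The median log2 fold change was 1.09 over the 42 genes and -0.00091 over all genes. The 24 response genes had a median of 1.56 with 19 higher and 1 lower, and the 18 synthetases a median of 0.50 with 9 higher and 2 lower. At least 2-fold changes were called higher for 22 of the 42 genes and lower for 1, where 18.3% and 17.7% of all genes were. Every cerulein library lay above every saline library for 28 of the 42 genes and below every saline library for 4, which held for 32.4% and 30.6% of all genes. Of the 28 genes called higher, 27 kept the call under all 14 alternatives tried, the exception being Ppp1r15b. None of the 3 called lower did, and each lost its call with library size alone.

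**Figure D1:**
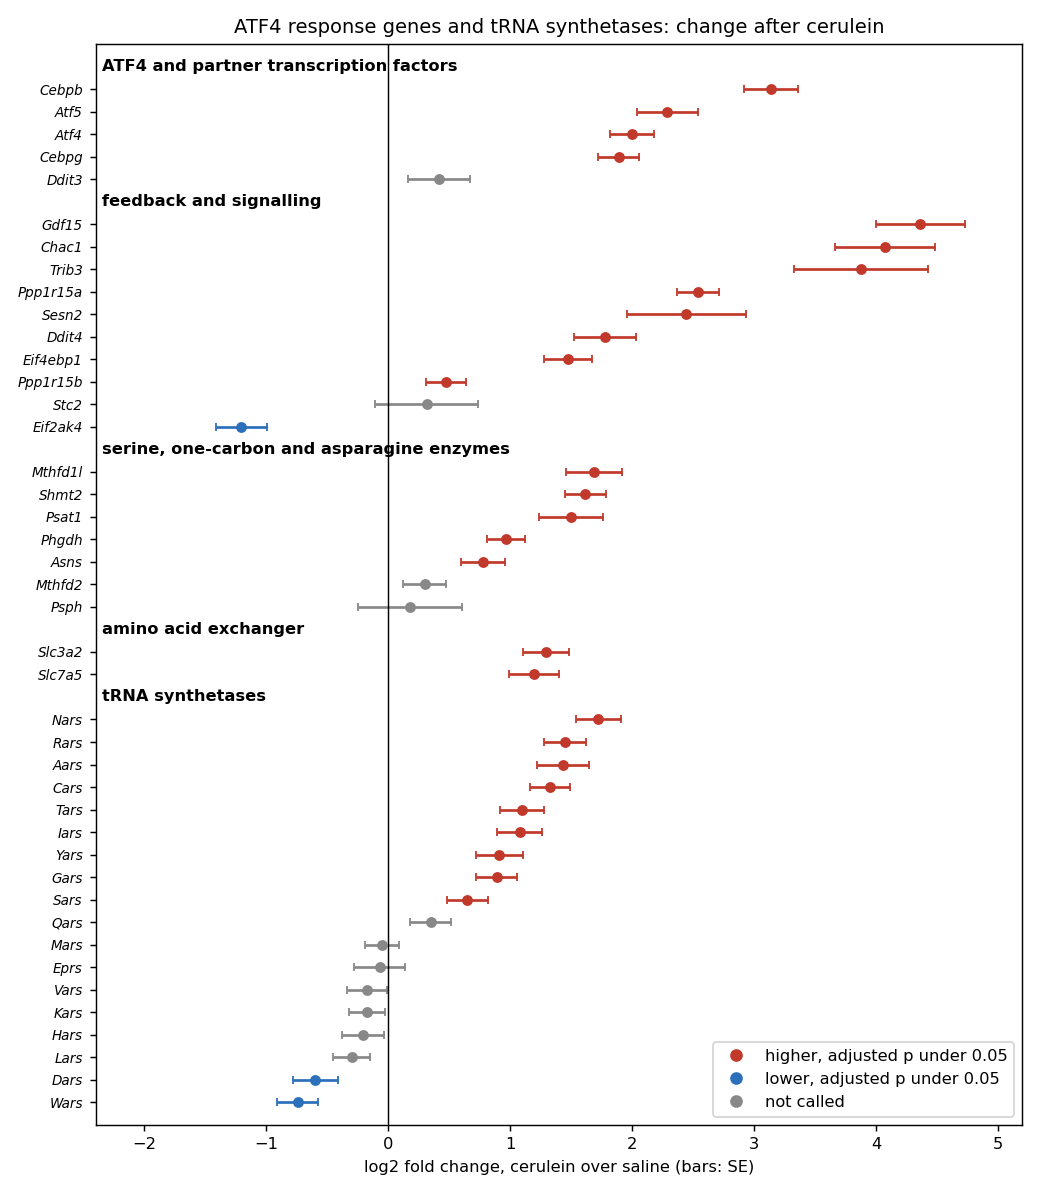
Log2 fold change, cerulein over saline, of all 42 genes by role, with the standard error as a bar and the call at an adjusted p under 0.05 as the colour (edgeR, 3 libraries a group). Response genes reach 4.36 in Gdf15, whereas the synthetases lie between -0.74 in Wars and 1.72 in Nars.

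Of the 5 transcription factors, 4 rose and Ddit3 was not called. Atf4, at chr15:80255184-80257545 (mm10), was at 807, 939 and 940.4 CPM in cerulein libraries, against 223, 216 and 232 CPM in saline libraries. The groups were far apart, and saline replicate 1 lay between the other saline libraries. Its log2 fold change was 2.0 ± 0.18 (SE, adjusted p = 1.10e-06, edgeR), a 4.0-fold level. Atf5, a related factor that is also a target of ATF4, was at 689, 767 and 792 CPM in cerulein libraries, against 188, 93.7 and 178 CPM in saline libraries, a log2 change of 2.29 ± 0.25 (adjusted p = 6.57e-06, edgeR). All cerulein libraries lay above all saline libraries for it, and saline replicate 2 was lowest. Atf5 partly overlaps Nup62, which covers 12.9% of its exon bases.

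Cebpb, a C/EBP protein that partners ATF4 and takes part in inflammation, had 52.7, 68.3 and 85.4 CPM in cerulein libraries, against 7.86, 9.24 and 6.17 CPM in saline libraries. It had the steepest rise among the factors, with a log2 change of 3.14 ± 0.22 (adjusted p = 1.51e-07, edgeR), and no library overlapped. Cebpg, the dimer partner of ATF4 that controls amino acid and redox genes, had 185, 204 and 209 CPM in cerulein libraries, against 61.8, 51.4 and 47.8 CPM in saline libraries, a log2 change of 1.89 ± 0.16 (adjusted p = 8.53e-07, edgeR). Ddit3, which encodes CHOP, a factor linked to cell death in prolonged stress, was low in all libraries, with 18.1, 13.3 and 12 CPM in cerulein libraries, against 13.4, 6.98 and 11.8 CPM in saline libraries. The groups overlapped and the log2 change of 0.41 ± 0.26 was not called (adjusted p = 0.187, edgeR). Scaled by library size alone, Ddit3 was called at 0.96. The span of Mbd6 covers 5.60% of the exon bases of Ddit3.

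Of the 10 feedback and signalling genes, 8 rose, 1 fell and 1 was not called. Chac1, an enzyme that breaks down glutathione, at chr2:119351242-119354326, reached 1178, 1157 and 1056 CPM in cerulein libraries, against 93.2, 27.3 and 80.5 CPM in saline libraries. The groups were far apart, and saline replicate 2 was the lowest library. The log2 change was 4.07 ± 0.41 (adjusted p = 2.93e-05, edgeR), a 16.8-fold level. Trib3, a pseudokinase that restrains ATF4 and AKT signalling, had 172, 212 and 256 CPM in cerulein libraries, against 24, 3.83 and 14.1 CPM in saline libraries. The saline libraries differed widely among themselves, and all lay below the cerulein libraries. The log2 change of 3.87 ± 0.55 (adjusted p = 0.00108, edgeR) became 4.56 without saline replicate 1.

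Gdf15, a secreted stress hormone of the TGF-beta family, had 177, 200 and 200 reads in the cerulein libraries, against 14, 1 and 3 in the saline libraries. Its log2 change was 4.36 ± 0.36 (adjusted p = 6.85e-07, edgeR), and 5.5 without saline replicate 1, and the size of the rise rests on these few saline reads. Sesn2, a leucine-sensing inhibitor of the growth kinase mTORC1, was at 76.7, 65.6 and 77.7 CPM in cerulein libraries, against 24.4, 5.63 and 7.97 CPM in saline libraries. Saline replicate 1 was well above the other saline libraries, and the log2 change of 2.44 ± 0.49 (adjusted p = 0.00527, edgeR) was 3.41 without it. Neutrophil markers were also highest in that library, and their part in these values was not tested. Ddit4, another inhibitor of mTORC1, also called REDD1, had 259.8, 165 and 164 CPM in cerulein libraries, against 77.6, 48.7 and 44.2 CPM in saline libraries, a log2 change of 1.78 ± 0.25 (adjusted p = 0.000103, edgeR), with cerulein replicate 1 above the other cerulein libraries. Eif4ebp1, which encodes the cap-binding inhibitor 4E-BP1, had 315, 415 and 331 CPM in cerulein libraries, against 102, 137 and 143 CPM in saline libraries, a log2 change of 1.47 ± 0.19.

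Both genes for regulatory subunits of the eIF2 phosphatase were called higher. Ppp1r15a, the inducible subunit GADD34 that directs phosphatase to eIF2 and restores translation, had 164, 171 and 174 CPM in cerulein libraries, against 24.6, 28.2 and 35.5 CPM in saline libraries, a log2 change of 2.54 ± 0.17 (adjusted p = 1.08e-07, edgeR). The cerulein libraries lay close together and far above the saline ones. Ppp1r15b, the constitutive subunit, had 227, 217 and 254 CPM in cerulein libraries, against 182, 148 and 172 CPM in saline libraries. Its rise was small at 0.47 ± 0.16 (adjusted p = 0.0254, edgeR), with the groups apart but close. The call was lost on leaving out cerulein replicate 3 (log2 change 0.42), saline replicate 2 (0.40) or saline replicate 3 (0.48). Upper-quartile factors also ended it (0.27). Whether the subunits differ in response was not tested.

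Stc2, a secreted glycoprotein induced by ATF4, was at 38.7, 48.3 and 55.3 CPM in cerulein libraries, against 61.8, 16.9 and 33.7 CPM in saline libraries. Saline replicate 1 was above every cerulein library, so the groups overlapped and the log2 change of 0.31 ± 0.42 was not called (adjusted p = 0.564, edgeR). Without saline replicate 1 Stc2 was called higher at 0.89, and without saline replicate 2 it stood at -0.03. Eif2ak4, which encodes GCN2, the eIF2 kinase activated by uncharged tRNA, was the only response gene called lower. It had 6.15, 6.32 and 7.32 CPM in cerulein libraries, against 16.8, 14 and 14.7 CPM in saline libraries, a log2 change of -1.2 ± 0.21 (adjusted p = 0.000301, edgeR). With library size alone the value was -0.65 and the call was lost.

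**Figure D2:**
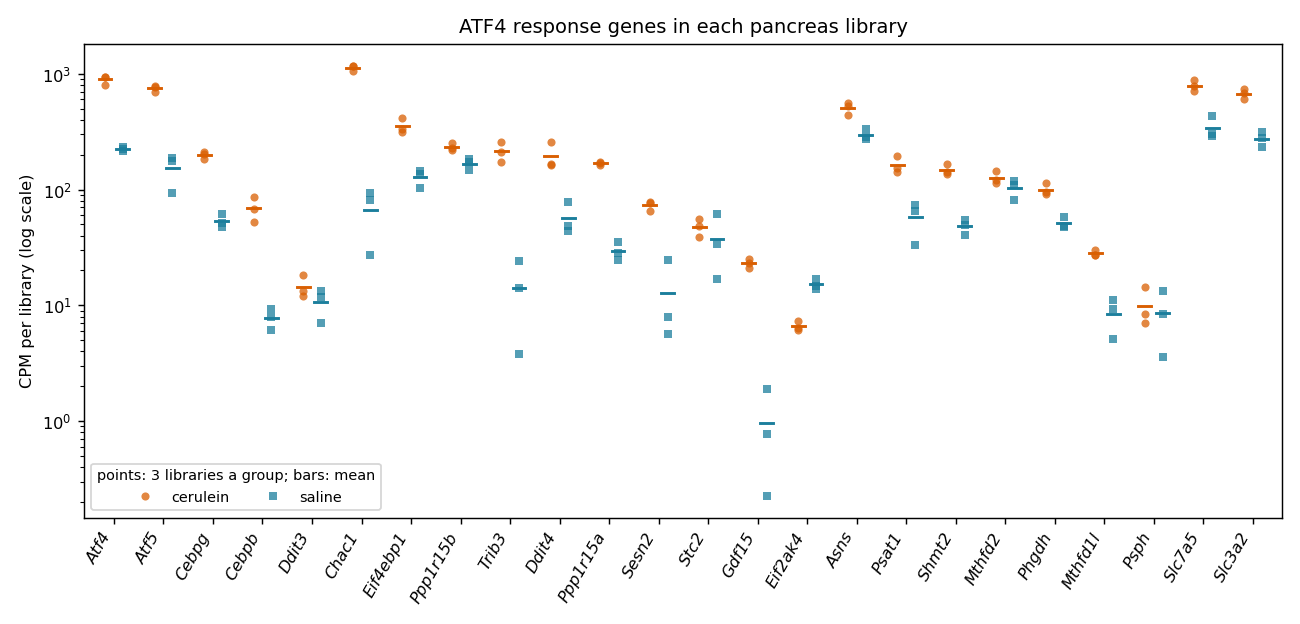
CPM on a log scale in each library for the 24 response genes, ordered by role, with 3 cerulein points (circles) left of 3 saline points (squares) and the group mean as a bar. Chac1, Atf4 and Atf5 are the genes highest in cerulein among the regulators, and in saline the points of Trib3, Sesn2 and Gdf15 are spread widely, with saline replicate 1 the highest.

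Enzymes that make serine, glycine, asparagine and folate-bound carbon units rose for 5 of 7 genes. None fell in edgeR, DESeq2 or limma-voom, also at an unadjusted p under 0.05. Shmt2, the mitochondrial enzyme that turns serine into glycine, had 136, 167 and 142 CPM in cerulein libraries, against 54.9, 40.5 and 49.4 CPM in saline libraries, a log2 change of 1.62 ± 0.17 (adjusted p = 4.00e-06, edgeR). Mthfd1l, which makes formate in mitochondria, had 27.1, 27.3 and 30.3 CPM in cerulein libraries, against 11.1, 9.24 and 5.14 CPM in saline libraries, a log2 change of 1.69 ± 0.23 (adjusted p = 4.37e-05, edgeR). Neither gene had overlapping groups.

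Psat1, the transaminase of serine synthesis, had 154, 194 and 142 CPM in cerulein libraries, against 65.7, 33.3 and 74 CPM in saline libraries, a log2 change of 1.5 ± 0.26 (adjusted p = 0.000611, edgeR). Phgdh, the first enzyme of that pathway, had 91.1, 113 and 95.6 CPM in cerulein libraries, against 47.7, 48.2 and 58.1 CPM in saline libraries, a log2 change of 0.96 ± 0.16. Of the 50-base runs in Phgdh transcripts, 47.8% also occur in other annotated genes, so its counts are uncertain. Asns, asparagine synthetase, was among the most abundant of these transcripts in both groups, with 443, 556 and 525 CPM in cerulein libraries, against 274, 282 and 334 CPM in saline libraries. Its rise was modest at 0.78 ± 0.18 (adjusted p = 0.00240, edgeR), without overlap between groups.

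Mthfd2, the mitochondrial partner of Shmt2, had 115, 144 and 121 CPM in cerulein libraries, against 109, 81.3 and 118 CPM in saline libraries and was not called (0.30 ± 0.18, adjusted p = 0.167, edgeR). It was called higher at 0.85 with library size alone. Psph, the phosphatase that ends serine synthesis, was low and scattered, with 7.1, 14.4 and 8.33 CPM in cerulein libraries, against 13.4, 3.6 and 8.48 CPM in saline libraries. Its log2 change was 0.18 ± 0.43, and the sign turned with upper-quartile factors (-0.02) and without saline replicate 2 or cerulein replicate 2 (-0.17 each).

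Both chains of the amino acid exchanger LAT1, which imports leucine and other large neutral amino acids, rose. Slc7a5, the transport chain, had 710.1, 776 and 875 CPM in cerulein libraries, against 435, 302 and 293 CPM in saline libraries, a log2 change of 1.2 ± 0.21 (adjusted p = 0.000271, edgeR). Slc3a2, the heavy chain that carries it to the membrane, had 608, 735 and 676 CPM in cerulein libraries, against 280.2, 232 and 312 CPM in saline libraries, a log2 change of 1.29 ± 0.19 (adjusted p = 6.51e-05, edgeR). No library overlapped in either gene.

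Levels were next taken per kilobase of exon, so that different genes can be set roughly side by side. The length counts every annotated exon base of a gene, also of transcripts that may be absent, so such orders depend on the annotation. Chac1 led the 42 genes in cerulein at 691 ± 39.8 CPM per kb (SD, n = 3). It was followed by Atf4 at 379.7 ± 32.5 and Atf5 at 376 ± 26.8, which did not differ beyond their spread. Slc7a5, Slc3a2 and Asns followed at 212 ± 22.4, 191 ± 17.9 and 186 ± 21.3 CPM per kb, again within their spread. In saline the order was another. Asns had the highest mean, 108 ± 11.9 CPM per kb, with Atf4 at 94.9 ± 3.43, Slc7a5 at 92.6 ± 21.4, Slc3a2 at 77.8 ± 11.4 and Atf5 at 76.8 ± 25.9, and neighbours among these genes did not differ beyond their spread. Chac1 was at 40.9 ± 21.4 CPM per kb in saline.

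Of the 18 synthetases, which load each amino acid onto its tRNA, 9 rose, 2 fell and 7 were not called. Nars, the asparagine enzyme, had 304, 365 and 354 CPM in cerulein libraries, against 114, 83.1 and 113 CPM in saline libraries. It had the steepest rise of the 18, with a log2 change of 1.72 ± 0.18 (adjusted p = 5.24e-06, edgeR) and groups far apart. Rars, the arginine enzyme, had 93.1, 120.0 and 110.2 CPM in cerulein libraries, against 46.7, 33.8 and 37.3 CPM in saline libraries, a log2 change of 1.45 ± 0.17 (adjusted p = 1.18e-05, edgeR). Aars, the alanine enzyme, had 166, 179 and 194 CPM in cerulein libraries, against 84.8, 44.1 and 69.7 CPM in saline libraries, a log2 change of 1.43 ± 0.21 (adjusted p = 9.04e-05, edgeR). Cars, the cysteine enzyme, had 89, 101 and 88.1 CPM in cerulein libraries, against 41.4, 29.96 and 39.1 CPM in saline libraries, a log2 change of 1.33 ± 0.16 (adjusted p = 1.58e-05, edgeR). In all of these the lowest cerulein library stood above the highest saline library, and for each the lowest saline value was that of replicate 2. Aars shares 13.5% of its 50-base runs with Exosc6.

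The other synthetases that rose were those of threonine (Tars, 1.1 ± 0.18), isoleucine (Iars, 1.08 ± 0.18), tyrosine (Yars, 0.91 ± 0.19), glycine (Gars, 0.89 ± 0.16) and serine (Sars, 0.65 ± 0.17). Tars had 91.8, 112 and 102 CPM in cerulein libraries, against 52.4, 35.1 and 55 CPM in saline libraries. Iars had 85.3, 98.9 and 108 CPM in cerulein libraries, against 57.8, 35.8 and 43.7 CPM in saline libraries. Yars had 105, 138 and 129 CPM in cerulein libraries, against 78.6, 47.5 and 71.2 CPM in saline libraries. In each the groups were apart, with saline replicate 2 the lowest library. The stretches printed above for Tars, Iars, Yars and Gars hold the composite element, and none was found in the window of Sars. No window was used here for Nars, Rars and Cars. Sars had 158, 202 and 188 CPM in cerulein libraries, against 111, 106 and 133 CPM in saline libraries, also without overlap. Gars and Kars encode both the cytosolic and the mitochondrial enzyme. Gars was at 217 ± 29.4 CPM in cerulein libraries and 117 ± 5.73 CPM in saline libraries (SD, n = 3 each), and Kars, which was not called (-0.18 ± 0.15), at 63.5 ± 3.52 CPM in cerulein libraries and 72 ± 8.54 CPM in saline libraries. All 9 synthetases that rose kept the call under all 14 alternatives, leaving out each library included.

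Wars, the tryptophan enzyme, which interferon induces in many cells, had 126, 144 and 151 CPM in cerulein libraries, against 205, 243 and 258 CPM in saline libraries. Its log2 change was -0.74 ± 0.17 (adjusted p = 0.00204, edgeR), with all cerulein libraries below all saline libraries. Dars, the aspartate enzyme, had 12.9, 17.6 and 17.2 CPM in cerulein libraries, against 21.5, 25.2 and 25.7 CPM in saline libraries and a log2 change of -0.60 ± 0.18 (adjusted p = 0.0137, edgeR). Dars lost its call without cerulein replicate 1 (-0.46), and both lost it with library size alone, at -0.15 for Wars and -0.02 for Dars. Lars and Hars, the leucine and histidine enzymes, had the next lowest values, -0.30 ± 0.15 and -0.20 ± 0.17, and were not called. For Lars the groups did not overlap, with 34.1, 39.4 and 41.9 CPM in cerulein libraries, against 51.7, 44.4 and 45.5 CPM in saline libraries, whereas with library size alone its log2 change was 0.25. With upper-quartile factors Lars (-0.50) and Kars (-0.38) were called lower. Qars (0.35 ± 0.17), Mars (-0.05 ± 0.14), Eprs (-0.07 ± 0.21) and Vars (-0.17 ± 0.17), for glutamine, methionine, glutamate with proline, and valine, were not called. Qars was called higher at 0.94 with library size alone.

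In mammals, 8 of these enzymes sit together in a multi-synthetase complex, and the other 10 do not. This split was made after the values were seen. Outside the complex 7 of 10 genes rose and 1, Wars, fell, with a median log2 fold change of 0.90. Within it 2 of 8 rose, Rars and Iars, and 1, Dars, fell, with a median of -0.06. The 25% called higher within the complex is near the share over all genes tested, 28.7%, where 27.1% were called lower. Summed over the 10 genes outside the complex, levels were 1369, 1651 and 1573 CPM in the cerulein libraries, against 970.0, 904 and 1009 CPM in the saline ones. The 8 genes of the complex summed to 444, 525 and 541 CPM in the cerulein libraries, against 432, 373 and 407 CPM in the saline ones. The sums did not overlap between groups in either class, with ratios of 1.59 and 1.25. Within the complex only 3 of the 8 genes had a log2 fold change above 0, so its sum does not describe each gene. Leaving out any library gave 7 of 10 and 2 of 8 genes called higher in each case. Whether the classes differ was not tested.

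**Figure D3:**
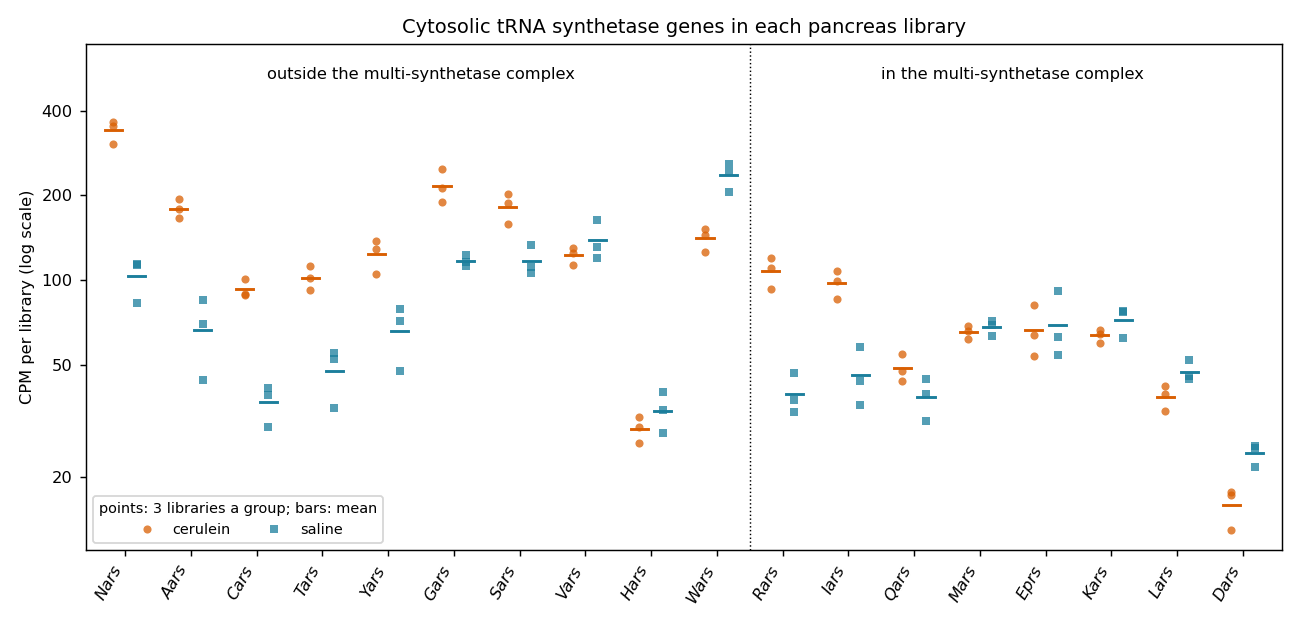
CPM on a log scale in each library for the 18 synthetases, with 3 cerulein points (circles) left of 3 saline points (squares) and the group mean as a bar, split by membership of the multi-synthetase complex. Outside the complex the groups separate upwards for 7 genes from Nars to Sars and downwards for Wars. Within it they separate upwards for Rars and Iars and downwards for Lars and Dars.

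Per kilobase of exon, the order among synthetases changed. In saline Wars led at 68.3 ± 7.9 CPM per kb (SD, n = 3), ahead of Gars at 37.5 ± 1.84, with Vars, Nars and Sars at 24.7 ± 4.1, 23.7 ± 4.02 and 22.7 ± 2.83, which did not differ beyond their spread. In cerulein Nars at 78.4 ± 7.45 and Gars at 69.5 ± 9.43 led, within their spread, and Wars was at 40.8 ± 3.84 CPM per kb. The lowest in saline was Eprs at 3.83 ± 1.08 CPM per kb, and in cerulein Dars and Eprs were lowest, at 3.64 ± 0.593 and 3.67 ± 0.775.

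Of the other 3 eIF2 kinases, upstream of ATF4, none was called higher by edgeR, DESeq2 or limma-voom (1 by edgeR at an unadjusted p under 0.05), and 1 was called lower. In edgeR, 28.7% of all genes tested were called higher and 27.1% lower. Eif2ak1, which encodes HRI, had 15.4, 20.01 and 18.3 CPM in cerulein libraries, against 33.2, 51.4 and 47.3 CPM in saline libraries, a log2 change of -1.29 ± 0.20 (adjusted p = 0.000101, edgeR). Its span overlaps that of Aimp2, and 27.3% of its exon bases lie in other genes. Eif2ak3, which encodes PERK, had 104, 122 and 145 CPM in cerulein libraries, against 155, 218 and 134 CPM in saline libraries and was not called (-0.45 ± 0.20, adjusted p = 0.0717, edgeR). It was called lower without saline replicate 1 (-0.56) or saline replicate 3 (-0.62). Eif2ak2, which encodes PKR, was not called at 0.63 ± 0.27 and was called higher without saline replicate 1 (0.75) or cerulein replicate 2 (0.80).

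Among 8 subunits of eIF2 and of its exchange factor eIF2B, 3 rose and 1 fell, where 28.7% and 27.1% of all genes did. Eif2s1, the subunit whose phosphorylation starts the response, had 43.4, 60.3 and 48 CPM in cerulein libraries, against 23.2, 26.8 and 19 CPM in saline libraries, a log2 change of 1.13 ± 0.18 (adjusted p = 0.000168, edgeR). Eif2s2 rose by 0.76 ± 0.15 and Eif2b5, the catalytic subunit of eIF2B, by 0.61 ± 0.17. Eif2b1, the eIF2B subunit that senses phosphorylated eIF2, had 12.4, 15.8 and 16.9 CPM in cerulein libraries, against 36.8, 49.8 and 44.7 CPM in saline libraries, a log2 change of -1.54 ± 0.18 (adjusted p = 1.42e-05, edgeR). The other 4 subunits were not called.

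Of 22 further ATF4 target genes, 20 were tested, 11 rose and 3 fell, with a median log2 fold change of 0.66. Over all genes tested, 28.7% rose and 27.1% fell. Atf3, a factor that ATF4 induces, rose most, by 5.46 ± 0.21. Sqstm1, the autophagy receptor p62, was at 2357 ± 316 CPM in cerulein libraries and 235 ± 48.2 CPM in saline libraries, a log2 change of 3.33 ± 0.23. Slc7a3, a carrier of arginine and lysine, rose by 3.03 ± 0.23, and Slc1a5, a glutamine carrier, by 1.68 ± 0.18. The genes that fell, named after their values were seen, were Aldh1l2, a mitochondrial folate enzyme (-1.99 ± 0.27), Klhl24 (-1.43 ± 0.21) and Gpt2, a mitochondrial alanine transaminase (-0.52 ± 0.14). Without saline replicate 2, 5 were called lower. Nupr1 and Vldlr lie inside the spans of other genes, had no read in any library, and were taken as not measured.

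Synthetases that work only in the mitochondrion are encoded by nuclear genes of their own. Of 17 such genes 1 rose, 8 fell and 8 were not called, with a median log2 fold change of -0.58. Of all genes tested, 28.7% were called higher and 27.1% lower. Summed over the 17 genes, levels were 1189, 1320 and 1135 CPM in cerulein libraries, against 1089, 1658 and 781 CPM in saline libraries. These sums overlapped, with a ratio of 1.03. A sum weighs abundant genes most, and only 3 of the 17 genes had a log2 fold change above 0. The number called lower was 5 without saline replicate 3 or without cerulein replicate 2. With library size alone 3 were lower, 2 higher and the median -0.01. In that last setting 5181 of the 12441 genes tested were called higher and 1449 lower. Cars2, the cysteine enzyme, had 5.09, 5.73 and 5.18 CPM in cerulein libraries, against 17.7, 18 and 18.3 CPM in saline libraries, a log2 change of -1.75 ± 0.20 (adjusted p = 9.39e-06, edgeR), whereas its cytosolic counterpart Cars had 1.33 ± 0.16. Iars2, the isoleucine enzyme, had -1.1 ± 0.19 and was called lower, beside 1.08 ± 0.18 for Iars. Other genes cover 22.9% of the exon bases of Iars2. Nars2, named after its value was seen, had -1.49 ± 0.30, beside 1.72 ± 0.18 for Nars. Yars2, the tyrosine enzyme, was the only gene of this list called higher. It had 26.3, 39.2 and 37.3 CPM in cerulein libraries, against 12.6, 14.6 and 16.5 CPM in saline libraries. Its log2 change was 1.25 ± 0.20 (adjusted p = 0.000160, edgeR), and Yars rose too.

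The 6 other genes of the synthetase machinery were mixed, with 2 higher and 3 lower, beside 28.7% and 27.1% of all genes. Of the scaffold proteins of the complex, Aimp1 had 13.1, 16.5 and 15.8 CPM in cerulein libraries, against 28.4, 34 and 36.5 CPM in saline libraries, a log2 change of -1.12 ± 0.18, while Aimp2 rose by 0.92 ± 0.18 and Eef1e1 by 1.02 ± 0.27. Tarsl2, a second cytosolic threonine enzyme, was low and fell, with 1.78, 1.05 and 2.02 CPM in cerulein libraries, against 4.47, 8.33 and 5.91 CPM in saline libraries (-1.92 ± 0.39, adjusted p = 0.000930, edgeR). Farsb, the beta chain of the phenylalanine enzyme and named after its value was seen, had -0.65 ± 0.21 but was not called on leaving out cerulein replicate 1 (-0.53) or saline replicate 2 (-0.55).

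**Figure D4:**
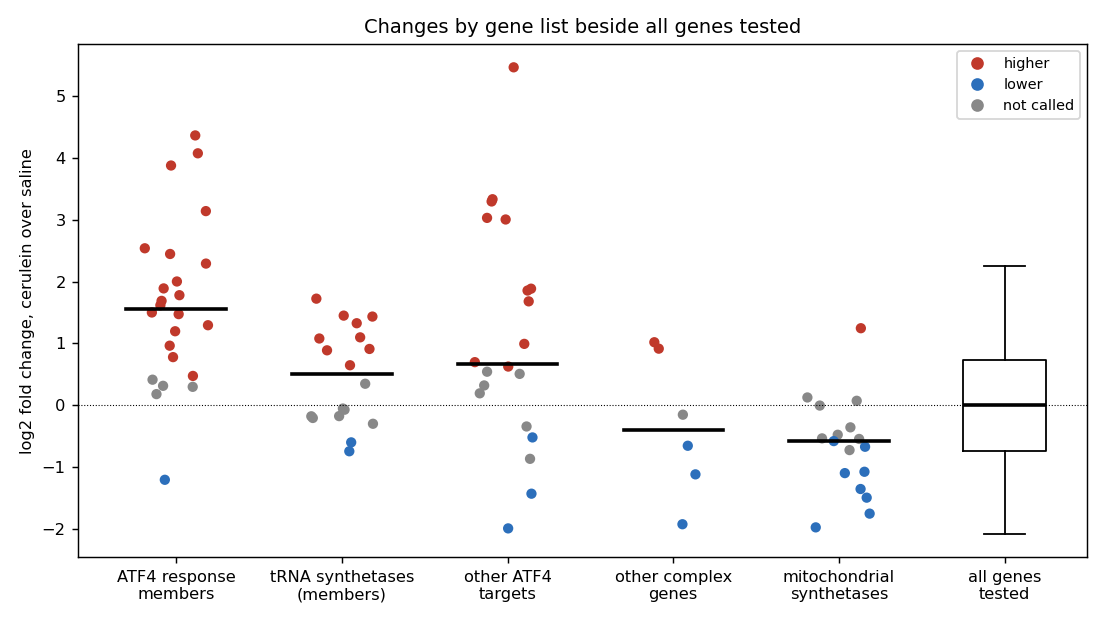
Log2 fold change, cerulein over saline, of each tested gene (points, coloured by call) in 5 lists with the list median as a bar, beside a box of all 12441 genes tested (median, quartiles, whiskers at the 5th and 95th percentiles). Medians run from 1.56 in response genes and 0.50 in cytosolic synthetases to -0.58 in mitochondrial synthetases.

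Markers of other cell types were read beside these values. The 10 monocyte and macrophage markers summed to 662, 624 and 559.8 CPM in the cerulein libraries, against 431, 206 and 300.3 CPM in the saline ones, with 4 called higher, none lower and none at 0 in all libraries. The ranges of these sums did not overlap between groups. Of the 9 neutrophil markers, 6 were tested and none was called by edgeR, DESeq2 or limma-voom, also at an unadjusted p under 0.05. Their summed levels overlapped between groups through saline replicate 1 alone, with a ratio of cerulein to saline means of 0.92. Without that library, an alternative added after the data were seen, the ratio was 2.86, every cerulein sum lay above both saline sums, and 3 of the 6 tested markers were called higher (edgeR). Ly6g, Mpo and Elane did not pass the filter. The 8 lymphocyte markers summed to 55.4, 27 and 25 CPM in the cerulein libraries, against 42.4, 5.63 and 37.8 CPM in the saline ones, with none of 6 tested called by these tools, also at an unadjusted p under 0.05, and Ms4a1 at 0 in all libraries. The 7 islet markers summed to 1568, 1670.1 and 1007 CPM in the cerulein libraries, against 798, 1901 and 1894 CPM in the saline ones, with 1 lower, and Iapp was at 0. The 7 endothelial and stromal markers summed to 452, 361 and 354 CPM in the cerulein libraries, against 429.6, 391.7 and 453 CPM in the saline ones, with 2 higher and 2 lower. Beside these counts, 28.7% of all genes tested were called higher and 27.1% lower. The part of these cells in the values of the response genes and synthetases was not tested.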

How the data were processed

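RNA from 6 mouse pancreas samples, 3 given cerulein and 3 given saline, was sequenced from libraries made with a TruSeq Stranded mRNA kit, per the labels' protocols. The table the authors deposited holds raw counts, 1 row for each of 36333 genes. Trimmomatic, STAR, HTSeq and mm10 are named, per the submitters' processing notes. Their versions, the strand setting and the annotation release are not given there. Counts were used unchanged.

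The quasi-likelihood test of edgeR 4.0.16 was run under R 4.3.3. Low genes were removed with filterByExpr (at least 10 reads, total of at least 15), libraries were scaled by TMM, and the quasi-likelihood F test was robust and two-sided, with Benjamini-Hochberg adjustment over 12441 genes and a threshold of 0.05. Standard errors were derived from the F statistics. Alternatives were other scalings, filters, DESeq2 1.42.0, limma-voom 3.58.1, a replicate block, and each library left out. The members and gene lists, and the rule that names up to 4 genes of smallest p in each further list, were chosen with earlier results of these data known. Spans came from RefSeq (GRCm38.p6) and exon lengths from GENCODE M21. A gene inside another gene's span and at 0 was taken as not measured. Some items that these rules would name are not reported here.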

Additional observations from a re-analysis of the deposited data

How the results depend on the processing

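With 3 libraries a group and total counts of 5335117 to 7610775, Gdf15, Psph and several mitochondrial synthetases rest on few reads. Over all genes the median log2 change became 0.56 with library size alone and -0.20 with upper-quartile factors. With library size alone, none of the 24 response genes and none (0) of the 18 synthetases were called lower. Among mitochondrial synthetases 2 were then higher and 3 lower. In that setting 5181 of the 12441 genes tested were called higher and only 1449 lower. With upper-quartile factors 4 synthetases were lower, where 2895 of the 12441 genes were called higher and 4190 lower. Leaving out each library in turn gave 18 to 20 response genes higher, 9 synthetases higher and 1 to 2 lower, 5 to 7 mitochondrial synthetases lower, and 10 to 12 further ATF4 targets higher and 3 to 5 lower. Signs turned only for members not called: with library size alone Eprs (0.45), Lars (0.25), Mars (0.51), Kars (0.41), Vars (0.40) and Hars (0.38), without a count filter Eprs (0.0015) and Mars (0.019), and with upper-quartile factors Psph (-0.022). With libraries left out in turn, Eprs ranged from -0.23 to 0.15, Mars from -0.098 to 0.0041, Psph from -0.17 to 0.71 and Stc2 from -0.026 to 0.89. The causes were not tested. Of the values recomputed for single members, 559 kept direction and call, 8 lost the call, 6 gained it and 15 turned sign. Same-numbered libraries did not deviate together in every pair (correlations of 0.20, 0.24 and -0.17 across 12441 genes), so the numbers were not taken to pair samples. With the replicate number as a block, 19 response genes were higher and 1 lower, 9 synthetases higher and 2 lower, 1 mitochondrial synthetase higher and 8 lower, and 12 further targets higher and 3 lower.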
